A study of Mus musculus with 12 samples.

Results

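Transcripts of 8 genes of cholesterol metabolism were followed in 12 RNA sequencing libraries of mouse CD44+ CD8+ T cells. The genes were chosen by symbol, with earlier results of these data known. They comprise 6 of synthesis and its control (Hmgcs1, Sqle, Insig1, Idi1, Fdft1 and Srebf2) and 2 of efflux (Abca1 and Abcg1). All 8 are among the 48397 symbols of the count table, and all 8 passed the filter on low counts that left 21457 genes for testing. None of the 8 encodes an uptake receptor, and uptake is covered only by other genes of the pathway below.

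The cells came from Kaede-transgenic mice bearing tumors of the mouse melanoma line YUMMER1.7. Kaede is a fluorescent protein that light turns from green to red, and all mice carried both the transgene and the tumor. Tumors were illuminated on day 11 and tissues were collected on day 12 from 4 mice. Tumor-retained cells (n = 4 libraries) were Kaede red+ cells sorted from the tumor, and egressed cells (n = 4) were Kaede red+ cells sorted from the draining lymph node. Spleen cells (n = 4) were sorted as CD44+ CD8+ T cells without a requirement for red Kaede, so that they served as circulating effector cells. CD44 is used as a marker of activated and memory T cells, and the sort does not show that each cell had met antigen. The labels state neither the strain, age and sex of the mice nor whether equal replicate numbers mark tissues of 1 mouse, although the table's column numbers skip the same value in all 3 tissues.

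Cells make cholesterol from acetyl-CoA through the mevalonate pathway. When sterols in the endoplasmic reticulum run low, the transcription factor SREBP-2, encoded by Srebf2, is carried to the Golgi, cleaved and released to switch on the genes of this pathway, its own gene and Insig1. The INSIG1 protein holds SREBP-2 back when sterols are plentiful. When oxidised sterols accumulate, the liver X receptors switch on the transporters ABCA1 and ABCG1, which move cholesterol out of the cell. Mouse T cells are known to raise synthesis and to lower these transporters when antigen activates them.

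The reference promoters were searched for letters of these control elements. RefSeq promoter sequences (GRCm38.p6, the assembly of mm10) were at hand for 5 of the 8 genes (Hmgcs1, Insig1, Idi1, Srebf2 and Abca1), and the 250 bases before the start were searched on both strands. The start here is that of the RefSeq promoter entry, and distances are counted from it. Gene positions given below follow GENCODE, whose starts differ for Hmgcs1, Insig1, Idi1 and Srebf2. In Insig1, Idi1 and Srebf2 the searched window reaches into the GENCODE gene span. Sqle, Fdft1 and Abcg1 had no entry. Searched letters were TCACNCCA for the core of the sterol regulatory element that SREBP-2 binds. They were CCAAT for the box bound by NF-Y and GGGCGG for the GC box bound by Sp1. For the liver X receptor element they were GGTNA and GGTCA, taken from its half-sites, with 5 bases between these letters. No match of one motif overlapped a match of another in these 5 windows. The sterol element core was present in Hmgcs1 (137 bases before the start) and in Srebf2 (162 bases before it), and in 3.67% of 32851 promoters of the same length. The liver X receptor element was present in Abca1, 67 bases before the start, and in 0.177% of promoters. All searched letters were chosen with earlier results or the sequences known, so a share only describes how common the letters are and tests nothing. The CCAAT letters occurred in Hmgcs1, Insig1, Idi1 and Srebf2 but not in the Abca1 window, against 33.8% of all promoters, and the GC box letters occurred in all 5, against 32.7%. A match is a description of the letters and not a measured binding site. A missing match in these 250 bases does not show that a gene lacks the element or its control. The promoters that hold the sterol element core or the liver X receptor element are shown 5′ to 3′, with that element in capitals. In Abca1 the half-sites read on the opposite strand.
Hmgcs1 chr13:119690101-119690350 (plus strand): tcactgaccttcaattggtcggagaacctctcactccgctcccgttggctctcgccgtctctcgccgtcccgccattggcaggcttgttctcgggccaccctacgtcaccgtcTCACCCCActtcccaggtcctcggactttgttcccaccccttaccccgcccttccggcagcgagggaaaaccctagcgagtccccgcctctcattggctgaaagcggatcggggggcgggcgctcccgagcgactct
Srebf2 chr15:82147019-82147268 (plus strand): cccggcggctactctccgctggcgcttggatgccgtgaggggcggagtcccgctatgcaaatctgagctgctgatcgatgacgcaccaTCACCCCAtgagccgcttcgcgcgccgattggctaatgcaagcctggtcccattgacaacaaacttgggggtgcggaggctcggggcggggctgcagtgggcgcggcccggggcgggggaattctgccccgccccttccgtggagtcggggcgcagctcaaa
Abca1 chr4:53159896-53160145 (minus strand): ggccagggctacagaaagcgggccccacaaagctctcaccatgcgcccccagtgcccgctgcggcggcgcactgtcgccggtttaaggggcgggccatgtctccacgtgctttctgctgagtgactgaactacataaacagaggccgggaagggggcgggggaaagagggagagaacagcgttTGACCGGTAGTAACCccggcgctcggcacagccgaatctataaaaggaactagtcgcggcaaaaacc

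The libraries held a total of 22734926 to 36291712 counts, and a floor of 3 counts corresponded to 0.0889 to 0.125 CPM. CPM are counts per 1e6 of the library total. Levels below are TMM-scaled CPM, given as mean ± SD over n = 4 libraries. Each change is a log2 fold change ± SE, fitted by the quasi-likelihood method of edgeR, and p-values were adjusted over all 21457 genes by the Benjamini-Hochberg method. Intervals are 95% intervals, and a change was called at an adjusted p under 0.05. Egressed libraries 3 and 4 and tumor-retained library 1 are called gene-poor here, because 14927 to 15296 genes were detected in them against 20560 to 32165 in the other 9 libraries. Of 3466 genes with a spleen mean of 5 to 30 CPM, which is the range of Sqle, Insig1, Idi1 and Fdft1, 20.5%, 23.5% and 25.7% had at most 3 counts in those 3 libraries. The share was 0% in each spleen library and 1.13% to 9.12% in the other 5. Tumor-retained libraries 3 and 4 stood apart in another way, since the summed level of 12 macrophage markers was 2244 and 3432 CPM there. It was 29.9 and 27.4 CPM in tumor-retained libraries 1 and 2, 6.77 to 78.7 in egressed and 17.0 to 67.7 in spleen libraries. In each of tumor-retained libraries 1 and 2, 6 of the 12 markers had no count, the complement gene C1qa among them, and Lyz2, for lysozyme, measured 3.16 and 2.76 CPM there against 758 and 951 in libraries 3 and 4. The summed level of 9 stromal markers was 4386 and 1887 CPM in tumor-retained libraries 3 and 4 and at most 63.2 CPM elsewhere. The 8 CD8 T cell markers were detected in every library, and their sum was 4123 and 5192 CPM in tumor-retained libraries 3 and 4 and 6149 to 7384 CPM in the other 10. Of the 8, 1 was called between tumor-retained and spleen cells, where 2.41% of all tested genes were. It was Cd8b1, for the beta chain of CD8, at 1120, 1012, 579 and 635 CPM in tumor-retained libraries 1 to 4 and 1637 to 1929 CPM in spleen (log2 fold change -1.06, adjusted p = 0.0104). It was at -0.73 when tumor-retained libraries 3 and 4 were left out (adjusted p = 0.00503), and its part in the lower levels of other genes was not tested. Cd3e measured 654 ± 82.5 CPM in spleen, 330 ± 38.6 in egressed and 382 ± 127 in tumor-retained cells. It did not pass against spleen (adjusted p = 0.0728 for egressed and 0.0746 for tumor-retained cells, edgeR). In each comparison with spleen, 4 of the 8 markers had positive and 4 had negative log2 fold changes. Summed levels of 5 markers each reached at most 28.7 CPM for melanoma, 37.9 for B cells and 129 for dendritic cells, the last in tumor-retained library 4. In bulk RNA, fewer cells of a type and less RNA per cell cannot be told apart.

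Among the 8 genes, Srebf2 and Abcg1 were called. Transcripts of Srebf2, the gene of the activator SREBP-2, were lower in both red populations than in spleen. Those of Abcg1, an exporter, were lower in tumor-retained cells than in either other group. Both calls of tumor-retained against spleen cells held in all 22 alternative settings. The Srebf2 call of egressed against spleen cells held in 11 of 22, and the Abcg1 call of egressed against tumor-retained cells in 6 of 22. Between tumor-retained and spleen cells, 2 of 8 genes were called, both lower, where 2.41% of all tested genes were called (1.39% lower). Between egressed and spleen cells 1 of 8 was called, lower, where 0.368% of all genes were called (0.172% lower). Between egressed and tumor-retained cells 1 of 8 was called, higher in egressed cells, where 1.10% of all genes were called (0.508% higher). Because the 8 genes were chosen with earlier results of these data known, these shares describe them and test nothing about the pathway. The enzyme gene Sqle had its highest values in tumor-retained cells, in libraries that did not overlap with either other group, but its changes did not pass the test. Groups without overlap were found for 2 of 8 genes between egressed and tumor-retained cells (6.35% of all genes), for 1 of 8 between egressed and spleen cells (14.1%) and for 3 of 8 between tumor-retained and spleen cells (20.3%). The remaining 5 genes had overlapping groups in all 3 comparisons. Egressed and tumor-retained cells were compared with the same spleen libraries, so the calls for Srebf2 are not independent of each other. Over all tested genes the median log2 fold change was 0.00 for egressed against tumor-retained, -0.13 for egressed against spleen and -0.15 for tumor-retained against spleen cells.

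**Figure D1:**
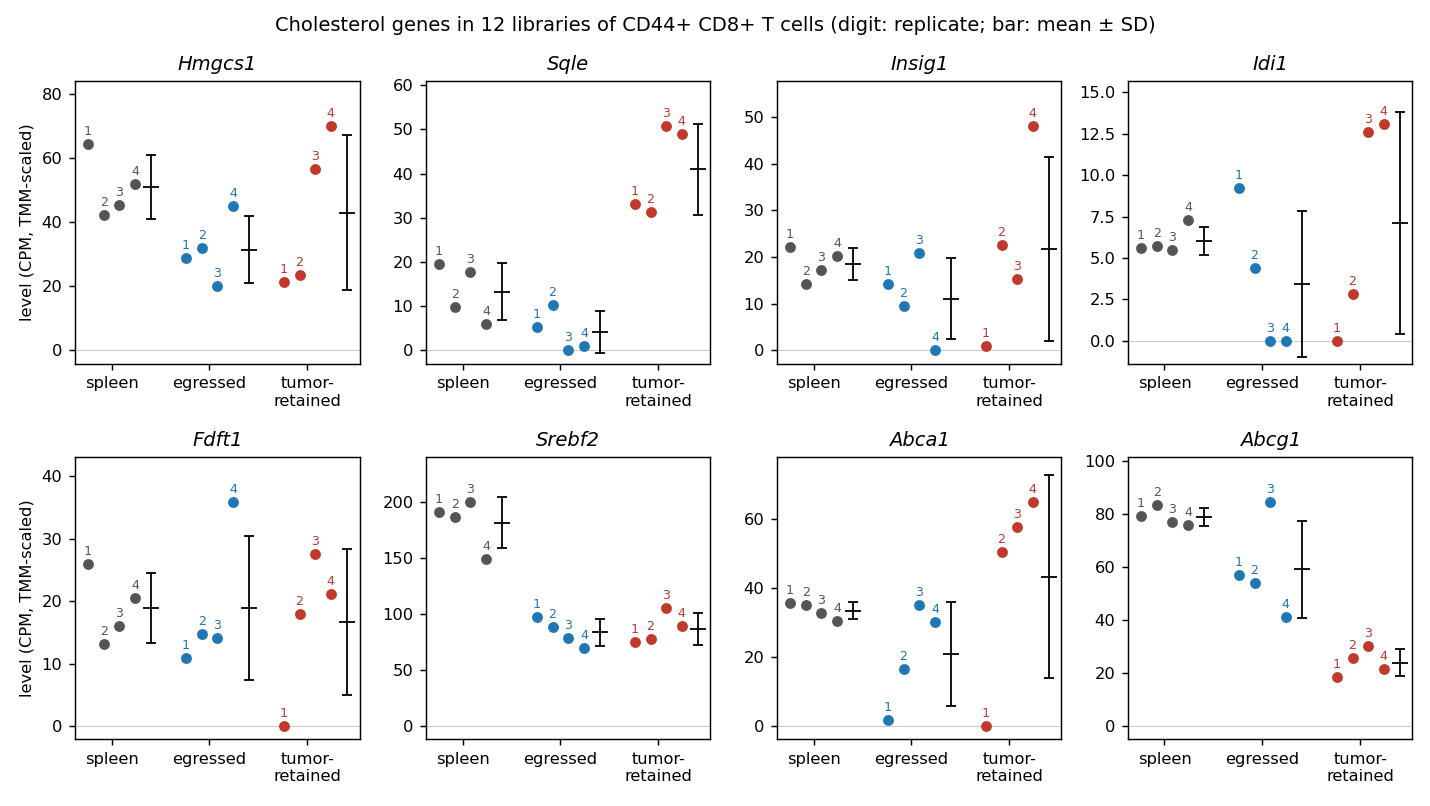
TMM-scaled level in CPM (linear vertical axis) of each gene in the 4 spleen (grey), 4 egressed (blue) and 4 tumor-retained (red) libraries, with the replicate number beside each point and the mean ± SD to the right. Srebf2 was at 149 CPM or more in spleen and at 105 CPM or less in both red groups, and Abcg1 was at 30.1 CPM or less in tumor-retained libraries and at 41.2 CPM or more elsewhere.

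Of the genes that control the pathway, the members were Srebf2 and Insig1. Only their transcripts were measured, and the cleavage and activity of SREBP-2 were not. Srebf2 (ENSMUSG00000022463.8, chromosome 15, 82147181 to 82205379 on mm10, plus strand), whose promoter holds the sterol element core shown above, measured 191, 187, 200.4 and 149 CPM in spleen libraries 1 to 4. It measured 97.7, 88.1, 79.0 and 69.3 CPM in egressed libraries 1 to 4. It measured 74.6, 77.3, 105 and 89.3 CPM in tumor-retained libraries 1 to 4. Every red library was below every spleen library, a pattern found for 3.68% of all genes, and the red groups overlapped with each other. Group means were 182 ± 22.5 CPM in spleen, 83.5 ± 12.2 in egressed and 86.6 ± 13.9 in tumor-retained cells. The tumor-retained level was 2.10-fold lower than in spleen (log2 fold change -1.07 ± 0.18, interval -1.46 to -0.68, adjusted p = 0.00695). This call held in all 22 alternative settings, with log2 fold changes from -1.28 to -0.89 and adjusted p-values up to 0.0393. Without tumor-retained libraries 3 and 4, where macrophage transcripts were high, the log2 fold change was -1.28 (adjusted p = 0.0127).

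In egressed cells Srebf2 was 2.18-fold lower than in spleen (log2 fold change -1.12 ± 0.18, interval -1.51 to -0.73, adjusted p = 0.0237). The call held in 11 of 22 settings and ended in 8 of the 12 fits that left out a library, namely any spleen or any egressed library (adjusted p up to 0.138 with a log2 fold change of -1.11, without spleen library 1). It also ended without the filter on low counts (adjusted p = 0.0658), without the 3 gene-poor libraries (0.0839) and with the replicate number as a block (0.1000). The log2 fold change was between -1.22 and -0.93 in all 22 settings. Between egressed and tumor-retained cells the Srebf2 difference was -0.05, with an interval from -0.44 to 0.33 (adjusted p = 0.944), and its sign turned in 3 of 22 settings.

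Insig1 (chromosome 5, 28071363 to 28078662, plus strand), the sterol-dependent brake on SREBP-2, measured 22.1, 14.2, 17.3 and 20.1 CPM in spleen libraries. It measured 14.1, 9.41, 20.8 and 0 CPM in egressed libraries 1 to 4, where 0 counts in library 4 allow up to 0.125 CPM. It measured 0.983, 22.6, 15.4 and 48.1 CPM in tumor-retained libraries 1 to 4. The groups overlapped, with 1 low library in each red group, and both low libraries were gene-poor. Means were 18.4 ± 3.42, 11.1 ± 8.74 and 21.8 ± 19.7 CPM, and no comparison passed (adjusted p = 0.813 to 1.00). The intervals were wide, such as -2.49 to 2.97 for tumor-retained against spleen, so that changes of either direction inside them were not detectable with these libraries.

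Synthesis enzymes are given in the order in which they act. Hmgcs1 (chromosome 13, 119690379 to 119708260, plus strand) encodes the cytosolic HMG-CoA synthase at the entry of the mevalonate pathway, and its promoter holds the sterol element core shown above. It measured 64.6, 42.1, 45.5 and 52.0 CPM in spleen libraries. It measured 29.0, 31.9, 19.95 and 45.1 CPM in egressed libraries. It measured 21.5, 23.5, 56.7 and 70.1 CPM in tumor-retained libraries 1 to 4, where libraries 3 and 4 were the high ones. All groups overlapped, and egressed library 4 alone of the egressed libraries reached the spleen range. Means were 51.1 ± 9.92, 31.5 ± 10.4 and 43.0 ± 24.3 CPM. The egressed minus spleen difference was -0.70 ± 0.42 (adjusted p = 0.852) and the egressed minus tumor-retained difference was -0.45 ± 0.42 (adjusted p = 0.705). When tumor-retained libraries 3 and 4 were left out, the latter turned to 0.50 (adjusted p = 0.526). The part of the macrophage and stromal transcripts in the high Hmgcs1 values of those libraries was not tested.

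Idi1 (chromosome 13, 8885501 to 8892451, plus strand) encodes isopentenyl diphosphate isomerase, which makes the isoprenoid building block. It had the lowest level per exon length of the 8 genes in spleen and tumor-retained cells, at 1.72 and 2.03 CPM per kilobase. It measured 5.63, 5.72, 5.49 and 7.28 CPM in spleen libraries. It measured 9.23, 4.40, 0 and 0 CPM in egressed libraries and 0, 2.83, 12.6 and 13.1 CPM in tumor-retained libraries. The 3 libraries with no count were the gene-poor ones. Values overlapped between the groups and no comparison passed (adjusted p = 0.872 to 1.00).

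Fdft1 (chromosome 14, 63145150 to 63179578, minus strand) encodes squalene synthase, the step that commits intermediates to sterols. It measured 26.0, 13.2, 16.1 and 20.4 CPM in spleen, 10.9, 14.7, 14.1 and 36.0 in egressed and 0.0614, 17.9, 27.5 and 21.1 CPM in tumor-retained libraries. Apart from tumor-retained library 1 with 2 counts, the libraries of all groups covered one range. No comparison passed (adjusted p = 0.968 to 1.00). Its annotated span overlaps that of the cathepsin gene Ctsb on the other strand by 774 bases, and reads there cannot be told apart if strand was not kept. Ctsb measured 230 ± 19.7 CPM in spleen, 165 ± 45.8 in egressed and 673 ± 426 in tumor-retained cells, with 1128 and 926 CPM in tumor-retained libraries 3 and 4, and its part in the Fdft1 values was not tested. Other members overlap annotated genes too. On the opposite strand, Hmgcs1 overlaps Gm48342 by 6190 bases and Idi1 overlaps Gm48574 by 323. On the same strand, Srebf2 overlaps Gm49502 by 2110 bases and Mir33 by 69, and Abcg1 overlaps Gm25447 by 128. The part of these genes in the levels was not tested.

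Sqle (chromosome 15, 59315077 to 59331192, plus strand) encodes squalene epoxidase, a rate-limiting enzyme late in the pathway. It measured 19.5, 9.84, 17.7 and 5.97 CPM in spleen libraries. It measured 5.28, 10.2, 0.0327 and 0.955 CPM in egressed libraries 1 to 4, with 1 and 23 counts in libraries 3 and 4. It measured 33.1, 31.2, 50.8 and 49.0 CPM in tumor-retained libraries. Every tumor-retained library was above every other library, including the gene-poor tumor-retained library 1, whereas egressed and spleen libraries overlapped. Over all genes, 1.92% had every tumor-retained library above every other. Means were 13.3 ± 6.43 CPM in spleen, 4.13 ± 4.67 in egressed and 41.0 ± 10.3 in tumor-retained cells. Egressed minus tumor-retained gave a log2 fold change of -3.31 ± 1.10 (interval -5.69 to -0.93, adjusted p = 0.150). Tumor-retained minus spleen gave 1.63 ± 1.03 (interval -0.60 to 3.86, adjusted p = 0.535). The first difference passed with DESeq2 (adjusted p = 0.00724) and the second without the 3 gene-poor libraries (1.76, adjusted p = 0.0445), in 1 of 22 settings each. Without tumor-retained libraries 3 and 4 the values were -2.96 and 1.25 (adjusted p = 0.293 and 0.643). Their signs held in all 22 settings.

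Of the exporters, Abcg1 passed the test and Abca1 did not. Abcg1 (ENSMUSG00000024030.7, chromosome 17, 31057675 to 31117988, plus strand) encodes a half-transporter that delivers cholesterol to high-density lipoprotein particles. It measured 79.4, 83.4, 77.01 and 75.9 CPM in spleen libraries. It measured 57.0, 53.9, 84.7 and 41.2 CPM in egressed libraries. It measured 18.5, 25.6, 30.1 and 21.4 CPM in tumor-retained libraries 1 to 4. Every tumor-retained library was below every other library, as for 1.99% of all genes, and egressed library 3 was above the spleen libraries while egressed libraries 1, 2 and 4 were below them. Means were 78.9 ± 3.30 CPM in spleen, 59.2 ± 18.3 in egressed and 23.9 ± 5.07 in tumor-retained cells.

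Abcg1 was 3.30-fold lower in tumor-retained than in spleen cells (log2 fold change -1.72 ± 0.27, interval -2.31 to -1.14, adjusted p = 0.00458). This call held in all 22 settings (log2 fold changes -1.87 to -1.54, adjusted p up to 0.0236), and without tumor-retained libraries 3 and 4 the value was -1.86 (adjusted p = 0.0207). Against tumor-retained cells, egressed cells held 2.47-fold more Abcg1 transcripts (log2 fold change 1.31 ± 0.27, interval 0.73 to 1.88, adjusted p = 0.0406). That call held in 6 of 22 settings only. It ended in 11 of the 12 fits that left out a library, the exception being tumor-retained library 3, with adjusted p up to 0.121 (log2 fold change 1.26, without tumor-retained library 4). The call also ended without tumor-retained libraries 3 and 4 (1.43, adjusted p = 0.0914), when only these 2 groups were fitted (1.30, adjusted p = 0.255) and with the replicate number as a block (1.29, adjusted p = 0.100). The log2 fold change lay between 1.03 and 1.44 in every setting. Egressed and spleen cells differed by -0.41 (interval -0.98 to 0.15, adjusted p = 0.905).

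Abca1 (chromosome 4, 53030787 to 53159895, minus strand) encodes the transporter that loads cholesterol onto lipid-poor apolipoprotein A-I, and its promoter holds the liver X receptor element shown above. It measured 35.7, 35.0, 32.7 and 30.5 CPM in spleen libraries. It measured 1.76, 16.6, 35.1 and 30.1 CPM in egressed libraries 1 to 4. It measured 0.0307, 50.4, 57.8 and 65.2 CPM in tumor-retained libraries 1 to 4, of which library 1 held 1 count. Tumor-retained libraries 2, 3 and 4 were above every other library and library 1 was below every other, so the groups overlapped. In tumor-retained library 2 the summed markers were at 27.4 CPM for macrophages and 63.2 CPM for stroma, and both sums were higher in libraries 3 and 4. The part of those transcripts in the Abca1 values was not tested. Means were 33.5 ± 2.36, 20.9 ± 14.97 and 43.3 ± 29.5 CPM, and no comparison passed (adjusted p = 0.772 to 1.00). The tumor-retained minus spleen difference was 0.37 (interval -2.17 to 2.91), and it was -0.44 without tumor-retained libraries 3 and 4 and 0.83 without the 3 gene-poor libraries (adjusted p = 0.920 and 0.376).

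**Figure D2:**
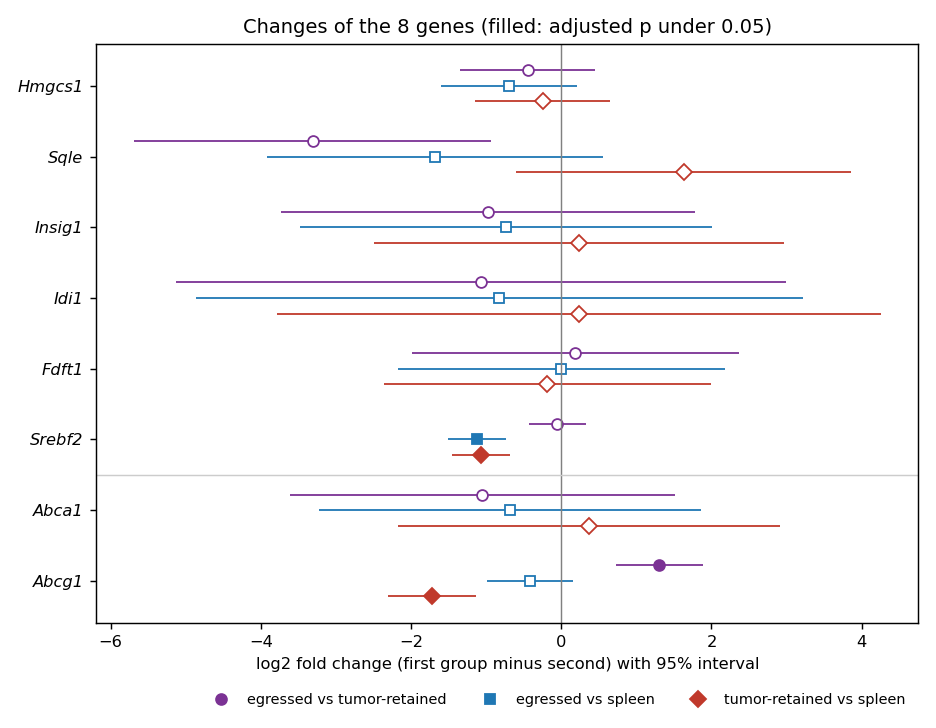
Log2 fold change (horizontal axis, first-named group minus second) with its 95% interval from edgeR's fit for each of the 8 genes in 3 comparisons, with filled symbols where the adjusted p was under 0.05. The 4 filled symbols belong to Srebf2 (-1.12 and -1.07 against spleen) and Abcg1 (1.31 and -1.72), and the intervals of Insig1, Idi1, Fdft1 and Abca1 span several log2 units.

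The order of the genes was compared per kilobase of annotated exon. Srebf2 had the highest mean of the 8 genes in each group, at 25.3, 11.6 and 12.1 CPM per kilobase in spleen, egressed and tumor-retained cells. Abcg1 held place 3 in spleen (10.8 CPM per kilobase) and place 2 in egressed cells (8.11) and stood in place 7 in tumor-retained cells (3.28). Sqle stood in place 7 in spleen (2.39), place 8 in egressed cells (0.744) and place 3 in tumor-retained cells (7.39). The level of Sqle per kilobase was above that of Abcg1 in 4 of 4 tumor-retained libraries and in 0 of 4 spleen and 0 of 4 egressed libraries. Abca1 was above Abcg1 in 3 of 4 tumor-retained libraries and in 0 of 8 others. These counts describe a pair picked after the values were seen.

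The balance of synthesis against efflux was described as the mean log2 CPM of the 6 synthesis and control genes minus that of Abca1 and Abcg1, without a test. It was -0.81, -1.37, -0.999 and -1.08 in spleen libraries 1 to 4. It was 0.71, -0.89, -3.83 and -3.62 in egressed libraries and 1.05, -0.84, -0.28 and 0.10 in tumor-retained libraries. Spleen libraries lay close together, whereas the red groups overlapped with each other and with the spleen libraries. Group means were -1.06 ± 0.23, -1.91 ± 2.202 and 0.01 ± 0.79. The 2 lowest balances, in egressed libraries 3 and 4, were those in which Idi1 had no count and Sqle was below 1 CPM. The highest, in tumor-retained library 1, was the one in which Abca1 had 1 count.

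**Figure D3:**
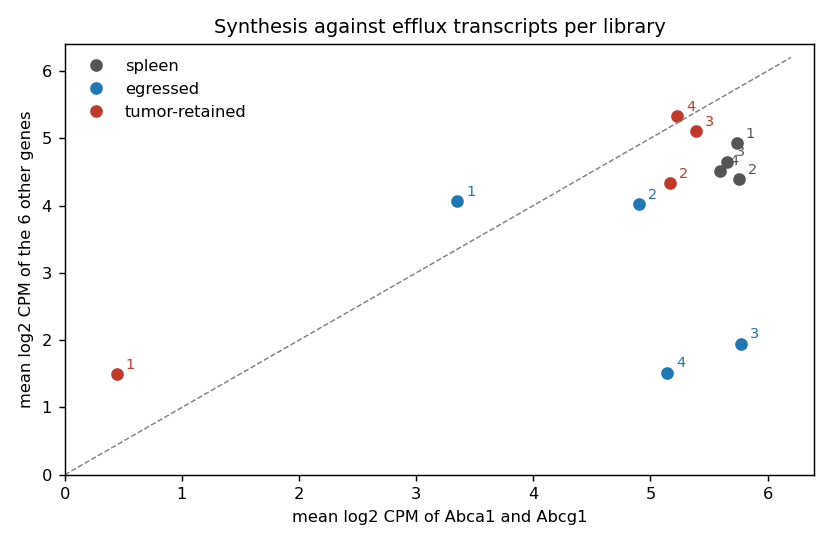
Mean log2 CPM of Abca1 and Abcg1 (horizontal axis) against the mean log2 CPM of the 6 synthesis and control genes (vertical axis) in each of 12 libraries, with replicate numbers beside the points and a dashed line where both are equal. The 4 spleen libraries lie together below the line, egressed libraries 3 and 4 lie lowest against it, and tumor-retained library 1 lies at the lower left, at 0.44 and 1.496.

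Of 44 other genes of the pathway, 2 passed edgeR's test between tumor-retained and spleen cells, where 2.41% of all genes did, and 0 passed in the comparisons of egressed with tumor-retained and spleen cells, where 1.10% and 0.368% of all genes did. Of 16 other synthesis enzymes, all tested, 0 rose and 0 fell in any of the 3 comparisons by edgeR's test. At an unadjusted p under 0.05 there were 1, 0 and 1 for egressed against tumor-retained, egressed against spleen and tumor-retained against spleen cells, where 17.4%, 8.79% and 16.7% of all genes were. DESeq2 called 1, Dhcr7 in tumor-retained against spleen cells, and limma-voom 0. In the same order, DESeq2 called 9.48%, 2.51% and 8.77% of all genes and limma-voom 1.46%, 0.974% and 5.58%, and these shares also stand beside the calls of both tools in the 3 lists that follow. Their median log2 fold change was -0.24 for egressed against tumor-retained, -0.08 for egressed against spleen and -0.01 for tumor-retained against spleen cells, beside 0.00, -0.13 and -0.15 over all tested genes. The enzymes with the highest levels were Ggps1, which makes geranylgeranyl diphosphate, at 52.8 ± 4.02, 53.6 ± 14.0 and 45.6 ± 11.5 CPM in spleen, egressed and tumor-retained cells, and Ebp, a sterol isomerase, at 52.7 ± 8.66, 57.3 ± 24.5 and 34.4 ± 7.65 CPM. Between tumor-retained and spleen cells, 2 of 16 enzymes had groups without overlap, where 20.3% of all genes did, and they lay in opposite directions. Both are named here after their values were seen. Cyp51, the lanosterol demethylase, lay at 36.34 to 90.2 CPM in tumor-retained and 23.7 to 27.9 in spleen libraries, and Dhcr7, which makes cholesterol in the last step, at 8.21 to 15.4 and 25.4 to 40.8. Neither passed (adjusted p = 0.523 and 0.100).

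Of 6 genes for sterol sensing and SREBP processing, 0 rose and 0 fell in any comparison by edgeR. In the order used above, 0, 2 and 3 had an unadjusted p under 0.05, beside 17.4%, 8.79% and 16.7% of all genes, and DESeq2 and limma-voom each called 1, Mbtps1 lower in tumor-retained than in spleen cells. All 6 had negative log2 fold changes in egressed against spleen cells, with a median of -0.49 beside -0.13 over all genes. Mbtps1, the protease that makes the first cut in SREBP proteins, measured 222 ± 26.8, 120 ± 37.2 and 111 ± 23.1 CPM in spleen, egressed and tumor-retained cells, and all 8 red libraries were below all 4 spleen libraries, as for 3.68% of all genes (adjusted p = 0.173 for egressed and 0.0520 for tumor-retained against spleen). Srebf1, for SREBP-1, the relative of SREBP-2 that mainly drives fatty acid synthesis, measured 140 ± 12.0, 107 ± 23.0 and 103 ± 14.2 CPM.

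Of 13 genes for uptake, esters and transport, 0 rose and 0 fell in any comparison by edgeR. In the order used above, 2, 1 and 2 had an unadjusted p under 0.05, beside 17.4%, 8.79% and 16.7% of all genes. DESeq2 called 2 lower in egressed than in tumor-retained cells (Npc2 and Stard4) and 1 higher in tumor-retained than in spleen cells (Gramd1b), where limma-voom called 1 lower (Lipa). For tumor-retained against spleen cells the list median was 0.36, with 10 positive and 3 negative values, beside -0.15 over all genes. Without tumor-retained libraries 3 and 4, where macrophage and stromal markers were high, it was 0.05, with 7 positive and 6 negative values, beside -0.45 over all genes. Soat1, which makes cholesterol esters and is named here after its values were seen, measured 29.2, 37.1, 117 and 118 CPM in tumor-retained libraries 1 to 4 and 53.4 ± 7.52 CPM in spleen (log2 fold change 0.50, adjusted p = 0.929). Gramd1a, which carries cholesterol from the plasma membrane, measured 1024 ± 124, 1266 ± 169 and 1203 ± 270.2 CPM in spleen, egressed and tumor-retained cells. Npc2, which hands on lysosomal cholesterol, measured 222 ± 22.6, 183 ± 28.4 and 284 ± 84.4 CPM.

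Of 9 genes for liver X receptors, their partners and targets, 0 passed in either comparison of egressed cells by edgeR. In tumor-retained against spleen cells 0 rose and 2 fell, where 1.39% of all genes fell. In the order used above, 3, 0 and 3 had an unadjusted p under 0.05, beside 17.4%, 8.79% and 16.7% of all genes. Between egressed and tumor-retained cells DESeq2 called Mylip and Rxrb and limma-voom called Mylip, each higher in egressed cells. For tumor-retained against spleen cells the list median was -0.00, beside -0.15 over all genes, and besides the 2 genes that fell DESeq2 called Scd1 higher. Scd1, for a fatty acid desaturase, had no count in tumor-retained libraries 1 and 2 and measured 36.29 and 25.7 CPM in libraries 3 and 4, those with high macrophage and stromal markers, against at most 1.13 CPM in spleen and egressed libraries. The part of those transcripts in the Scd1 and Soat1 values was not tested. Mylip, a liver X receptor target for a ubiquitin ligase, measured 133, 145, 141 and 117 CPM in spleen and 99.9, 106, 81.8 and 126 in egressed libraries. It measured 23.3, 12.3, 53.4 and 47.2 CPM in tumor-retained libraries, all below every other library. The change from spleen was -1.98 ± 0.38 on the log2 scale (adjusted p = 0.0159). Its call held in 18 of 22 settings and ended without spleen library 1, 2 or 3 or tumor-retained library 1 (adjusted p up to 0.0558). The egressed minus tumor-retained difference of Mylip was 1.60 ± 0.37 and did not pass (adjusted p = 0.0666), but it passed in 7 of 22 settings, among them the one without tumor-retained libraries 3 and 4 (2.55, adjusted p = 0.00580).

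Rxrb, for a retinoid X receptor that pairs with liver X receptors, fell to 79.9 ± 6.94 from 139 ± 14.98 CPM (log2 fold change -0.80 ± 0.17, adjusted p = 0.0301). Its call held in 8 of 22 settings, in 2 of the 12 fits without a library (those without egressed library 1 or 3), and ended with RLE scaling (adjusted p = 0.0889), on leaving out tumor-retained libraries 3 and 4 (0.0906) and with the replicate number as a block (0.0540), with values up to 0.175. The receptor gene Nr1h2 itself measured 159 ± 12.0, 187 ± 35.1 and 158 ± 34.7 CPM in spleen, egressed and tumor-retained cells. Abca7, a relative of Abca1, measured 211 ± 11.0, 145 ± 55.2 and 161 ± 38.3 CPM.

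**Figure D4:**
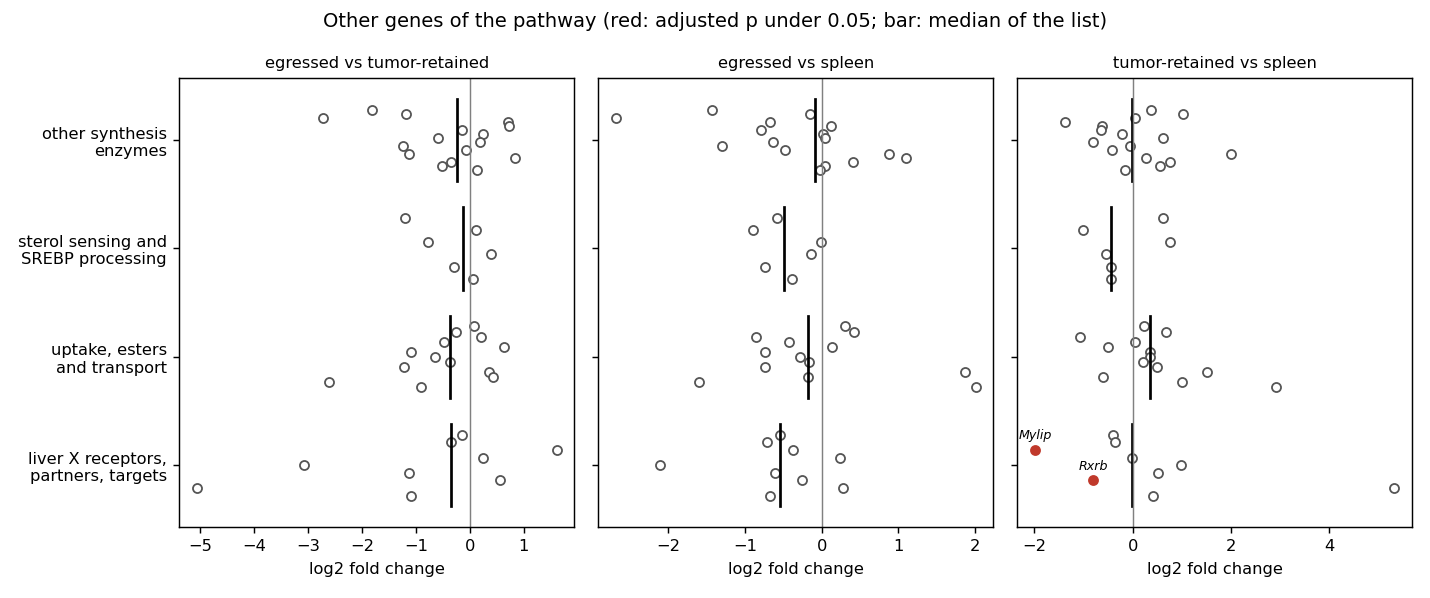
Log2 fold changes (horizontal axes, first-named group minus second) of the 44 other pathway genes in 4 lists (vertical axis), 1 point per gene and 1 panel per comparison, with the list median as a bar. The only red points, for an adjusted p under 0.05, are Mylip and Rxrb in tumor-retained against spleen cells, both lower.

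Patterns most like those of the members were ranked by Pearson's r of log2 CPM over the 12 libraries among 8671 other genes with a mean of at least 10 CPM, as a description without a test. For Abcg1 they were Mllt6 (r = 0.970), Smc4 (0.964) and Zhx2 (0.9504). For Sqle they were Cryzl1 (0.964), Dync1li1 (0.960) and Gsr (0.952). For Abca1 they were Dgkh (0.968), Oxa1l (0.967) and Mycbp (0.960), and for Hmgcs1 Edem1 (0.948), Hcfc2 (0.943) and Sar1a (0.902). None of these 12 genes is a member or in the pathway lists. Among the members themselves, Fdft1 and Abca1 were most alike (r = 0.907), both with at most 2 counts in tumor-retained library 1, while r was 0.403 for Hmgcs1 and Sqle, 0.330 for Abca1 and Abcg1 and -0.526 for Sqle and Abcg1. The libraries of a group share their sort, and the gene-poor libraries enter every one of these values.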

How the data were processed

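RNA of sorted CD44+ CD8+ T cells was sequenced in 12 libraries (4 spleen, 4 egressed, 4 tumor-retained). RNA was taken up in Takara lysis solution and libraries were made with the SMART-Seq v4 ultra-low input kit, per the labels' protocols, which adds no molecular identifiers, so floors cover counting error only. Per the submitters' processing notes, the build was mm10 and the tools, with no role stated, were STAR 2.7.3a, cutadapt 2.5, Cufflinks 2.2.1 and Bowtie2 2.5.1. How reads were counted, on which annotation and with which strand setting is not stated. The authors deposited raw counts per symbol and log2 normalized values, and the deposited log2 values equal log2(count / size factor + 1) within 5.03e-09.

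After filterByExpr and TMM scaling, the 3 groups entered 1 edgeR quasi-likelihood model (edgeR 4.0.16, R 4.3.3). The code was also run on simulated counts. Those held no gene-poor libraries and no added macrophage or stromal RNA, so that run cannot show how the model handles these features. DESeq2 1.42.0 and limma 3.58.1 served as alternatives. Log2 CPM used a prior count of 2. Exon lengths and positions came from GENCODE M21. Lists of pathway and marker genes, the 8 members, the alternatives and the motif letters were chosen with earlier results or the sequences known. Pathway genes are named where they passed, or as the 2 most abundant of a list, with exceptions stated. Some genes of these lists are not reported here. The design names 4 mice, and libraries of equal number were not treated as paired. Alternatives covered scaling, filters, tools, a replicate block and left-out libraries.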

Additional observations from a re-analysis of the deposited data

Results flagged for a closer look

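In 57 groups of 4 libraries, the 18 named genes and the synthesis minus efflux balance in each of 3 groups, 3 held a library whose gap to its neighbour exceeded the 95% critical share of the range (Dixon), and chance gives about 1 in 20. Spleen library 4 was highest for Idi1 at 7.28 CPM, where the other spleen libraries lay between 5.49 and 5.72. Egressed library 4 was highest for Fdft1 at 36.0 CPM, against 10.9 to 14.7. Tumor-retained library 2 was highest for Ebp at 45.9 CPM, against 29.9 to 31.9.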

How the results depend on the processing

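Over 22 alternative settings, the calls of Srebf2 and Abcg1 between tumor-retained and spleen cells held in all. The counts of genes called were 235 (egressed against tumor-retained), 79 (egressed against spleen) and 518 (tumor-retained against spleen). In that order they were 1919, 508 and 1777 with DESeq2 and 13, 230 and 1304 when only the compared groups were fitted. Without the filter on low counts the last 2 were 41 and 342, and with limma-voom 209 and 1197. With a minimum of 10 CPM in 4 libraries the first 2 were 430 and 158. Without the 3 gene-poor libraries (egressed 3 and 4, tumor-retained 1) the first was 442 and the last 2347. Leaving out single libraries gave 95 to 487, 5 to 123 and 223 to 645 genes, and 0 to 1, 0 to 1 and 2 to 2 of the 8 members. Of the members, 0 passed between egressed and tumor-retained cells without the filter, with limma-voom, in the fit of 2 groups, with the replicate block and without tumor-retained libraries 3 and 4, and 2 passed with DESeq2. Between egressed and spleen cells 0 passed without the filter, with the block and without the 3 gene-poor libraries. The cause was not tested.

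With the replicate number as a block, 78, 23 and 295 genes were called, Abcg1 between egressed and tumor-retained cells had an adjusted p of 0.100 and Srebf2 between egressed and spleen cells one of 0.1000 (edgeR). Between tumor-retained and spleen cells the block also ended the call of Rxrb (adjusted p = 0.0540). Whether the numbers mark mice is not stated. Deviations of same-numbered libraries correlated at -0.124 to 0.117, and 5 of 24 best matches fell on the same number. With RLE scaling the median of all genes moved from -0.13 to 0.03 (egressed against spleen) and from -0.15 to 0.03 (tumor-retained against spleen), and the split of genes called higher and lower moved from 42 and 37 to 70 and 20 and from 219 and 299 to 322 and 178. With library size alone the split was 150 and 110 against 109 and 126 for egressed against tumor-retained, and 59 and 22 for egressed against spleen cells. With limma-voom the medians were -0.86 (egressed against spleen) and -0.81 (tumor-retained against spleen), and 31 genes were higher and 178 lower in the first comparison and 195 and 1002 in the second. With the block these medians were -0.51 and -0.53. DESeq2 called 1024 higher and 753 lower in tumor-retained against spleen cells, and without the filter the medians were -0.38 and -0.56.

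Signs turned 36 times, in 0 cases for a called change. For tumor-retained against spleen, limma-voom gave -0.70 for Insig1, -1.88 for Idi1 and -1.88 for Abca1, the block gave -0.70 for Abca1, and RLE scaling and DESeq2 gave 0.0015 for Fdft1. Without tumor-retained libraries 3 and 4 these values were -0.68 for Insig1, -2.12 for Idi1 and -0.44 for Abca1. Without the 3 gene-poor libraries Hmgcs1 was at 0.024 and Fdft1 at 0.27. For egressed against tumor-retained, limma-voom gave 0.61 for Abca1 and library size alone gave 0.045 for Srebf2. Without tumor-retained libraries 3 and 4 the values were 0.50 for Hmgcs1, 1.28 for Idi1 and 0.15 for Srebf2, and without the gene-poor libraries -0.87 for Fdft1. For Fdft1 in egressed against spleen cells the values were -0.14 with limma-voom, -0.26 with the block, -0.0041 on leaving out tumor-retained libraries 3 and 4 and -0.60 without the gene-poor libraries, the last setting giving 0.15 for Idi1. Leaving out single libraries gave -0.48 to 0.21 (egressed against spleen), -0.36 to 0.54 (egressed against tumor-retained) and -0.55 to 0.30 (tumor-retained against spleen) for Fdft1, and -0.137 to 0.052 for Srebf2 between egressed and tumor-retained cells. For tumor-retained against spleen it gave -0.60 to 0.048 for Hmgcs1, -0.24 to 0.73 for Idi1 and -0.52 to 0.70 for Insig1. Idi1 did not pass the minimum of 10 CPM.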
